A study of Mus musculus with 6 samples.

Results

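The 9 genes described here encode the mucus of intestinal goblet cells and the machinery that makes it: the mucin Muc2, the mucus proteins Fcgbp, Zg16, Tff3 and Spink4, the folding factor Agr2, the glycosyltransferase Galnt12 and the transcription factors Spdef and Creb3l1. They were taken by gene symbol, and all 9 were found, with 1 transcript entry each, among 21950 gene symbols with values for both genotypes. The study compared the ileum, the segment of small intestine nearest the colon, of 3 wild type and 3 TLR4ΔIEC mice, all of strain C57BL/6 and 24 weeks old, by sequencing of RNA depleted of ribosomal RNA. TLR4ΔIEC stands for a conditional knockout of Toll-like receptor 4, the sensor of bacterial lipopolysaccharide, in the intestinal epithelium. The Cre driver, and whether the wild type mice carried a floxed allele or Cre, are not given in the labels.

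Goblet cells are secretory cells scattered through the epithelium of crypts and villi. Muc2 is folded and crosslinked in the endoplasmic reticulum, coated with O-linked sugars in the Golgi, packed into granules and released as a gel that keeps bacteria away from the epithelium. Other secreted proteins bind to the gel or act on bacteria and on the epithelial surface.

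Each genotype has 1 deposited column of average coverage, in reads per base of transcript, made from all 3 of its mice. There are therefore no replicate values, no test was possible, and the difference between genotypes cannot be told apart from the difference between sequencing pools. The wild type column lists 22724 entries with a summed coverage of 699800, and the TLR4ΔIEC column 22687 entries with 698473. Tlr4 itself was weakly covered, at 1.98 in wild type and 1.60 in TLR4ΔIEC, and other cells of the ileum keep the gene, so it is a weak check of the labels. The ileal bile acid binding protein Fabp6 was at 10471 and 9750 by coverage, the highest of the absorptive cell markers in both columns. In whole tissue, fewer goblet cells and less RNA per goblet cell cannot be told apart.

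The mucus genes did not move as a block between the pooled columns. Zg16 and Tff3, the 2 most highly covered in wild type, were lower in TLR4ΔIEC, while Spink4, Agr2 and Creb3l1 were higher and Muc2 was nearly equal. Ratios are given as log2 of TLR4ΔIEC over wild type, after both columns were put on 1 scale, in units with a mean column total of 1000000, and 1 unit was added to each value. Of the 9 genes, 3 lay above 0, against 52.7% of the 8888 genes whose mean over both columns reached 5 units. None of the 9 was at least 2-fold higher or lower, against 1.29% of all genes higher and 2.79% lower. At a fold of 1.5, a threshold chosen with the values known, 2 of 9 were lower (Zg16 and Tff3) against 10.2% of all genes, and 0 of 9 were higher against 6.57%. The median log2 ratio of the 9 was -0.14 and that of all genes 0.03.

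**Figure D1:**
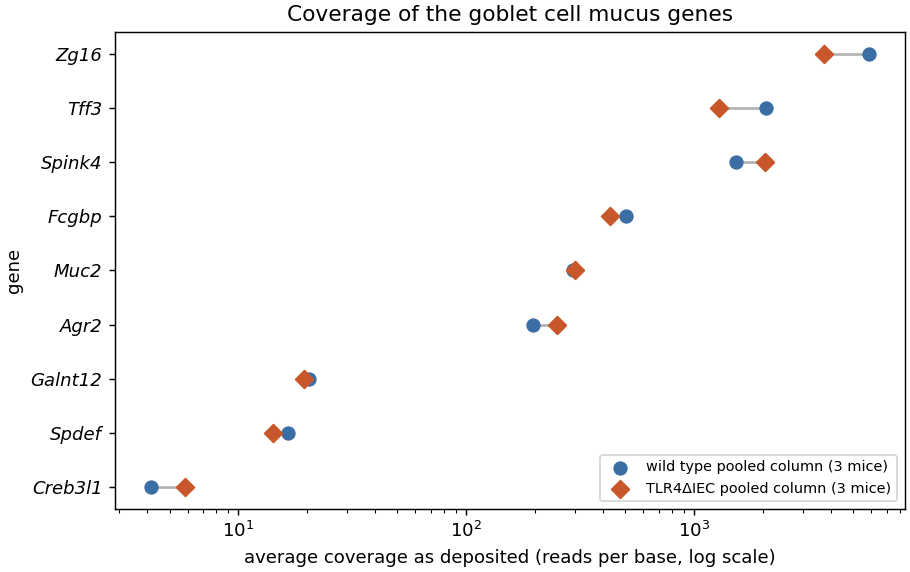
Average coverage of each of the 9 mucus genes, in reads per base on a log axis, in the wild type pooled column (circles) and the TLR4ΔIEC pooled column (diamonds). Zg16 is highest and Creb3l1 lowest in both columns, and Spink4 lies below Tff3 in wild type and above it in TLR4ΔIEC.

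The levels of the genes spanned 3 orders of magnitude, from Zg16 to Creb3l1, with a ratio of highest to lowest of 1410 in wild type and 635 in TLR4ΔIEC. Coverage is per base, so genes of different length can be set side by side. In wild type the order was Zg16, Tff3, Spink4, Fcgbp, Muc2, Agr2, Galnt12, Spdef and Creb3l1. In TLR4ΔIEC only Tff3 and Spink4 changed places. With no spread between mice, it is not known which neighbours in this order differ. Zg16 held 55.8% of the summed coverage of the 9 genes in wild type and 46.1% in TLR4ΔIEC. Spink4 held 14.6% and 25.3%. Together the 9 genes held 1.5% of all coverage in wild type and 1.15% in TLR4ΔIEC, and their summed level was 1.36-fold lower in TLR4ΔIEC. Without Zg16 and Tff3, the sum of the other 7 was 3751 units in wild type and 4279 in TLR4ΔIEC, so the lower total rested on those 2 genes.

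Muc2 (chromosome 7, 141690340 to 141754693, plus strand, mm10) encodes the gel-forming mucin that is the main polymer of intestinal mucus. Its coverage was 296 in wild type and 302 in TLR4ΔIEC, a log2 ratio of -0.04. The sign of this small ratio depended on the scaling: it was 0.03 when columns were scaled to their totals, 0.07 without the 50 highest genes and 0.14 with quantile normalization. Muc2 thus had about the same level in both pooled columns under each scaling. No annotated transcript was matched to the Muc2 entry, and the tandem repeats of mucins make read placement uncertain. The level of Muc2 against other genes is therefore less secure than its ratio.

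Fcgbp (chromosome 7, 28071236 to 28120862, plus strand, 20 exons) encodes a large mucus protein built of repeated von Willebrand type domains. Its coverage was 502 in wild type and 429 in TLR4ΔIEC, a log2 ratio of -0.29. Relative to Muc2 in the same column it stood at 1.70 times in wild type and 1.42 times in TLR4ΔIEC. Fcgbp was thus lower in TLR4ΔIEC both in level and against the polymer, by less than 1.5-fold.

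Agr2 (chromosome 12, 35992907 to 36004087, plus strand, 8 exons) encodes a protein disulfide isomerase of the endoplasmic reticulum that mice need to produce Muc2. Its coverage was 196 in wild type and 251 in TLR4ΔIEC, a log2 ratio of 0.29. It stood at 66.3% of the Muc2 coverage in wild type and 83.3% in TLR4ΔIEC, so the folding factor was higher against its client in the TLR4ΔIEC column.

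The promoters of Muc2, Fcgbp and Agr2 are shown because these genes, the polymer, a partner in the gel and the folding factor, had a ratio near 0, below 0 and above 0. Each run holds 250 bases before and 50 bases after the start site, 5′ to 3′ on the strand of the gene, from RefSeq (GRCm38.p6, the assembly behind mm10). Capitals mark GGAT, the ETS core that Spdef prefers, CAGCTG, an E-box of the type bound by Atoh1, and TATAA, each on either strand, so that GGAT also appears as its complement.
Muc2, chr7:141690090-141690389, plus strand: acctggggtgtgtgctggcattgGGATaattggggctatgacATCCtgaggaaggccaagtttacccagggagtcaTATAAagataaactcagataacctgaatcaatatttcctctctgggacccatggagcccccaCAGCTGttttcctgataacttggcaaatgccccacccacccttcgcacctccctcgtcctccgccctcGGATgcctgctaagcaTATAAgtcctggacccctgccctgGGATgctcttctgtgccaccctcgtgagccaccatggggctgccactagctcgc
Fcgbp, chr7:28070986-28071285, plus strand: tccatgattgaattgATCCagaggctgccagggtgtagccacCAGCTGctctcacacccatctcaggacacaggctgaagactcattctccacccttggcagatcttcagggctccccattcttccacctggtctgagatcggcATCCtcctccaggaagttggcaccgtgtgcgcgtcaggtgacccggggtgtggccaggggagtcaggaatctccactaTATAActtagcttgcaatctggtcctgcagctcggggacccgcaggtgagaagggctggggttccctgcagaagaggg
Agr2, chr12:35992675-35992974, plus strand: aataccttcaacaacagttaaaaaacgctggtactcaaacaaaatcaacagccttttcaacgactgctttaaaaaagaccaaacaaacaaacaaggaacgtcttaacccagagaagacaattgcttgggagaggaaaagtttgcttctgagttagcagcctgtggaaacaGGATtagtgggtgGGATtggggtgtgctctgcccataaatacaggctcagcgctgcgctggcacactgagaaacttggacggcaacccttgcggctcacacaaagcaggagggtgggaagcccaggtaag
The Muc2 promoter holds the ETS core at 4 places, the E-box 112 bases before the start site, and the TATA core at 2 places, the nearer of which begins 28 bases before the start site. The Fcgbp promoter holds the ETS core at 2 places, the E-box 208 bases before the start site and the TATA core likewise 28 bases before it. The Agr2 promoter holds the ETS core at 2 places, 80 and 67 bases before the start site, and neither of the other motifs in this window. The promoter of Spdef, the remaining one matched, holds the ETS core at 5 places, the CRE core of the Creb family (not among those in capitals) at 1 and the TATA core on both strands at overlapping positions. Promoters were matched for 4 of the 9 genes. The entries for Zg16, Tff3, Spink4, Galnt12 and Creb3l1 are missing.

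Such letters are common. Of 32851 RefSeq promoters of the same length, searched on both strands, 79.6% hold the ETS core, 16.3% the E-box, 24.9% the TATA core and 7.51% the CRE core, TGACGT. A Cdx2 type motif, TTTATNG, is held by 10.9% and by the Agr2 promoter among the 4. The Foxa core, TGTTTAC, is held by 3.65%, the motif of the NF-κB factors that act below Toll-like receptors, GGANTTTCC, by 1.25%, and neither by any of the 4. The ETS core lies in all 4, and its part in the ratios of these genes was not tested. A match is a stretch of letters, not a binding site.

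Zg16 (chromosome 7, 127050156 to 127087328, minus strand, 3 exons) encodes a lectin-like mucus protein that binds the cell wall of Gram-positive bacteria. Its coverage was 5844 in wild type and 3711 in TLR4ΔIEC, or 8557 and 5183 units, a log2 ratio of -0.72 and 1.65-fold lower. It ranked 19th of all gene symbols by coverage in wild type and 26th in TLR4ΔIEC. Against Muc2 it stood at 19.8 times in wild type and 12.3 times in TLR4ΔIEC.

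Tff3 (chromosome 17, 31125306 to 31129646, minus strand, 3 exons) encodes a trefoil peptide secreted with mucins that helps the epithelium close after injury. Its coverage was 2074 in wild type and 1282 in TLR4ΔIEC, or 3037 and 1791 units, a log2 ratio of -0.76 and 1.70-fold lower. Against Muc2 it stood at 7.02 times in wild type and 4.25 times in TLR4ΔIEC. Zg16 and Tff3 kept nearly the same ratio to each other, 2.82 in wild type and 2.89 in TLR4ΔIEC.

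Spink4 (chromosome 4, 40920052 to 40931395, plus strand, 4 exons) encodes a small secreted protein of the Kazal family of serine protease inhibitors. Its coverage was 1527 in wild type and 2042 in TLR4ΔIEC, or 2236 and 2852 units, a log2 ratio of 0.35. Against Muc2 it stood at 5.16 times in wild type and 6.77 times in TLR4ΔIEC. The ratio of Spink4 to Tff3 within a column, which needs no scaling between columns, was 0.74 in wild type and 1.59 in TLR4ΔIEC. Both are short transcripts of similar level, and the part of length and level in these ratios was not tested.

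**Figure D2:**
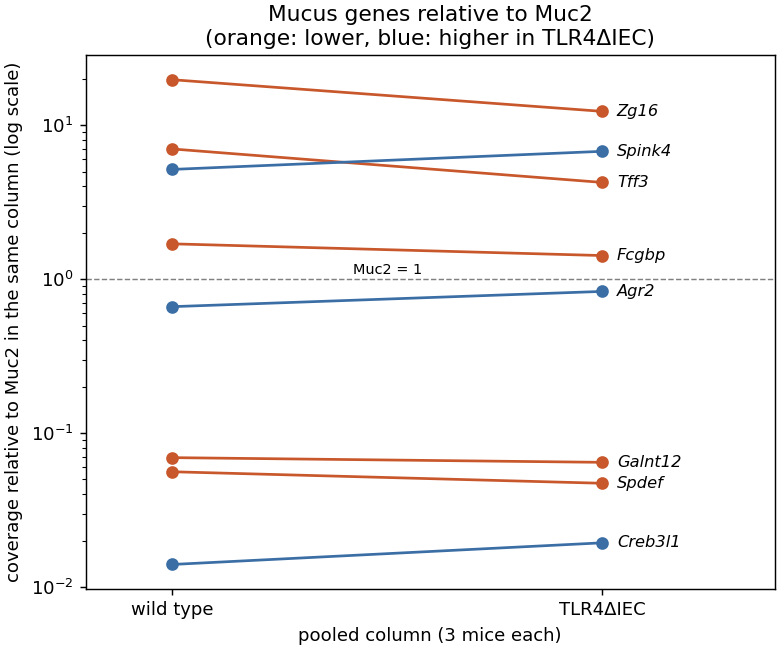
Coverage of 8 mucus genes divided by that of Muc2 in the same pooled column, on a log axis, for wild type (left) and TLR4ΔIEC (right). Zg16, Tff3, Fcgbp, Galnt12 and Spdef are lower against Muc2 in TLR4ΔIEC (orange), and Spink4, Agr2 and Creb3l1 are higher (blue).

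Galnt12 (chromosome 4, 47091909 to 47123070, plus strand, 10 exons) encodes an enzyme that adds the first sugar of mucin type O-glycans. Its coverage was 20.5 in wild type and 19.5 in TLR4ΔIEC, a log2 ratio of -0.14. Galnt12 was thus close in both columns.

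Spdef (chromosome 17, 27714352 to 27728955, minus strand, 6 exons) encodes an ETS transcription factor that mice need for goblet cell maturation. Its coverage was 16.6 in wild type and 14.2 in TLR4ΔIEC, a log2 ratio of -0.28. Creb3l1 (chromosome 2, 91982328 to 92024502, minus strand, 12 exons) encodes a transcription factor held in the membrane of the endoplasmic reticulum, known in mice for a part in goblet cell maturation. Its coverage was 4.14 in wild type and 5.84 in TLR4ΔIEC, a log2 ratio of 0.37, so the 2 transcription factors differed in opposite directions. The coverage of Spdef was 4.00 times that of Creb3l1 in wild type and 2.44 times in TLR4ΔIEC.

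The depth behind these values differs widely. Coverage times transcript length gave about 3717 kilobases of reads for Zg16 in wild type and 2360 in TLR4ΔIEC, and about 9.41 and 13.3 kilobases for Creb3l1, which makes the ratio of Creb3l1 the least precise of the 9. For the 8 genes with a matched transcript, all but Muc2, no overlap with an exon of another annotated gene was found on either strand.

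**Figure D3:**
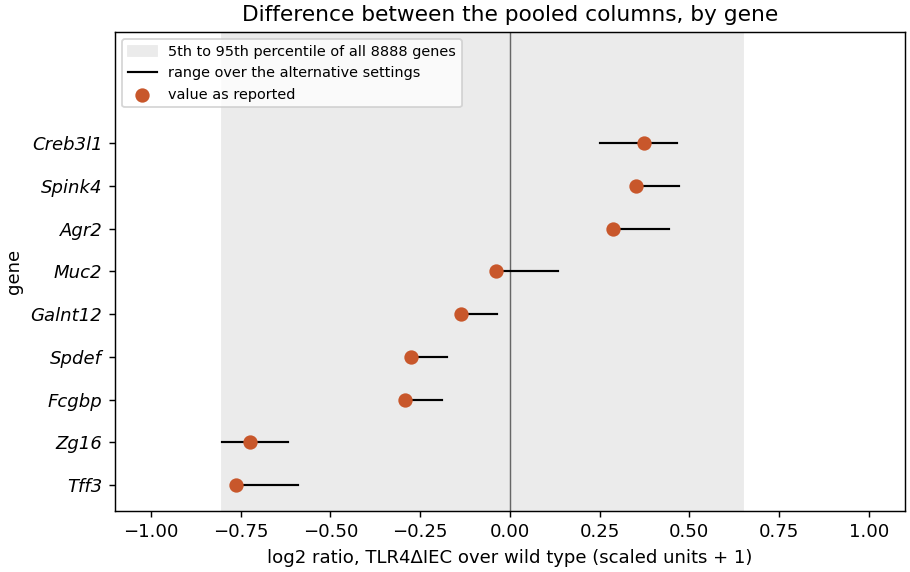
Log2 ratio of each mucus gene between the TLR4ΔIEC and wild type pooled columns (points), with the range over the alternative settings (lines) and the 5th to 95th percentile of all 8888 genes (grey band, -0.80 to 0.65). All 9 points lie inside the band, and only the line of Muc2 crosses 0.

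Against all genes, the 9 differences lay inside the range from the 5th to the 95th percentile, with Zg16 and Tff3 near its lower end. Across the 8888 genes the 5th and 95th percentiles of the log2 ratio were -0.80 and 0.65, and the 9 ratios ran from -0.76 to 0.37. Among the 900 genes at 100 units or more, the level of the 6 best covered mucus genes, 18.1% were at least 1.5-fold lower in TLR4ΔIEC. Of those 6 mucus genes, 2 were, Zg16 and Tff3. The median of the epithelial genes used for comparison, such as Epcam, Cdh1 and the keratins, was -0.02. The 6 of 9 mucus genes below it were the same 6 that lay below 0, so this is not a separate result. Of the 8888 genes, 52.7% lay above 0, and the share below -0.02 was not counted. Among those epithelial genes Cldn7 was at -0.65, Epcam at -0.40, Cdh1 at 0.33 and Krt19 at 0.43.

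Other genes known from goblet cells gave the same mixed picture, with small differences for most. Of 27 listed genes, 24 passed the filter: 9 lay above 0 and 15 below, 1 passed 2-fold in each direction, and the median was -0.12. Stard3nl, a membrane protein of endosomes, was at -1.30 (63.2 in wild type and 26.4 in TLR4ΔIEC by coverage), and Lrrc26, a subunit of potassium channels, at -0.96. Qsox1, an enzyme that forms disulfide bonds in secreted proteins, was at 0.56. Ang4, an antimicrobial protein also made by Paneth cells, was at 0.35, and near-identical relatives make its value uncertain. Clca1, the metalloprotease that processes the mucus gel, was at 610 in wild type and 679 in TLR4ΔIEC by coverage, a log2 ratio of 0.09. It was chosen after its value was seen and is listed in the deposited columns under its older symbol, Clca3. The 1 gene at least 2-fold higher, likewise named after its value was seen, was Retnlb, a goblet cell protein that acts on bacteria and is induced in infection. Its coverage was 2.96 in wild type and 16.7 in TLR4ΔIEC, a log2 ratio of 2.19. With 4.33 and 23.4 units, it passed the filter only through the column where it is higher. The median of the list was -0.02 when the 50 highest genes were left out of the totals.

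Among other mucins, Muc13, which sits in the membrane of enterocytes, was at 282 in wild type and 324 in TLR4ΔIEC by coverage, close to the level of Muc2, with a log2 ratio of 0.13. Of 13 listed mucins, 9 had values in both columns and 2 passed the filter, Muc13 and Muc4. Muc4, just above the filter and named after its value was seen, was at 2.64 and 4.52 by coverage, a log2 ratio of 0.59. With 3.86 units in wild type and 6.31 in TLR4ΔIEC, it passed the filter only through the column where it is higher. The gel-forming mucins of stomach and airways, Muc5ac, Muc5b and Muc6, were each at or below 0.09 in both columns, so Muc2 was by far the most covered gel-forming mucin. Of the trefoil peptides, Tff1 was at 0.06 and 0.11 and Tff2 at 0.18 and 0.55, far below Tff3.

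Genes of the steps that come before secretion lay mostly above 0, by amounts that for the sugar lists depended on the filter. Of 20 measured genes of folding and export in the endoplasmic reticulum, 18 lay above 0 and 2 below, with a median of 0.40. The disulfide isomerases Txndc5 (0.79), Pdia4 (0.74) and Pdia3 (0.64) and the transcription factor Xbp1 (0.50) led the well covered members, and Kdelr3, a receptor that returns proteins to the endoplasmic reticulum, was the 1 member at least 2-fold higher (1.27, named after its value was seen). Of 11 genes that supply activated sugars, 9 lay above 0, with a median of 0.31 (0.17 with a filter at 20 units). Gfpt1, the first enzyme of amino sugar synthesis, was at 0.65, Cmas, which activates sialic acid, at 0.58, and the Golgi sugar carrier Slc35a3 at 0.31. Of 16 measured O-glycosylation genes other than Galnt12, 12 lay above 0 and the median was 0.26. That median was 0.09 with no filter and 0.15 with a filter at 20 units. Galnt4 was at 0.37, Galnt1 at 0.33 and the chaperone C1galt1c1 at 0.32, while Galnt15 was at -1.02. Plasma cells, which secrete antibodies through the same machinery, had 5 of 5 marker genes above 0 with a median of 1.41 (2 of them passing the filter only through TLR4ΔIEC), and their part in these lists was not tested.

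Regulators of the secretory lineage were mixed. Of 13 genes, 7 passed the filter: 3 lay above 0 and 4 below, with a median of -0.29. Klf4, a transcription factor of goblet and villus cells, was the 1 well covered member, at 53.3 in wild type and 34.8 in TLR4ΔIEC by coverage, a log2 ratio of -0.67. Atoh1, the factor that commits cells to the secretory lineage, named after its value was seen, was at 13.9 and 11.4, a log2 ratio of -0.33. The median of this list was -0.08 with a filter at 1 unit, 0.00 with none and -0.67 with a filter at 20 units. Relatives of the 9 by family also varied: Creb3l3, a factor of liver and enterocytes, was at -1.83, the epithelial ETS factor Elf3 at -0.74, the protease inhibitor Spink3 at -0.70 and Txndc12, a relative of Agr2, at 0.19. Of 7 measured relatives, 3 lay above 0 and 4 below (median -0.10, and -0.40 with a filter at 20 units). Of 8 measured genes of cytokine signals that act on goblet cells, 4 lay above 0 and 4 below (median -0.05). The medians of both lists, and of the epithelial genes, lay above 0 under some scalings or filters, up to 0.10, 0.06 and 0.09. Il22ra1, the receptor chain for interleukin 22, was at -1.04, Il10rb, its partner chain, at -0.43, Il13ra1 at 0.29 and Stat3 at 0.27.

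**Figure D4:**
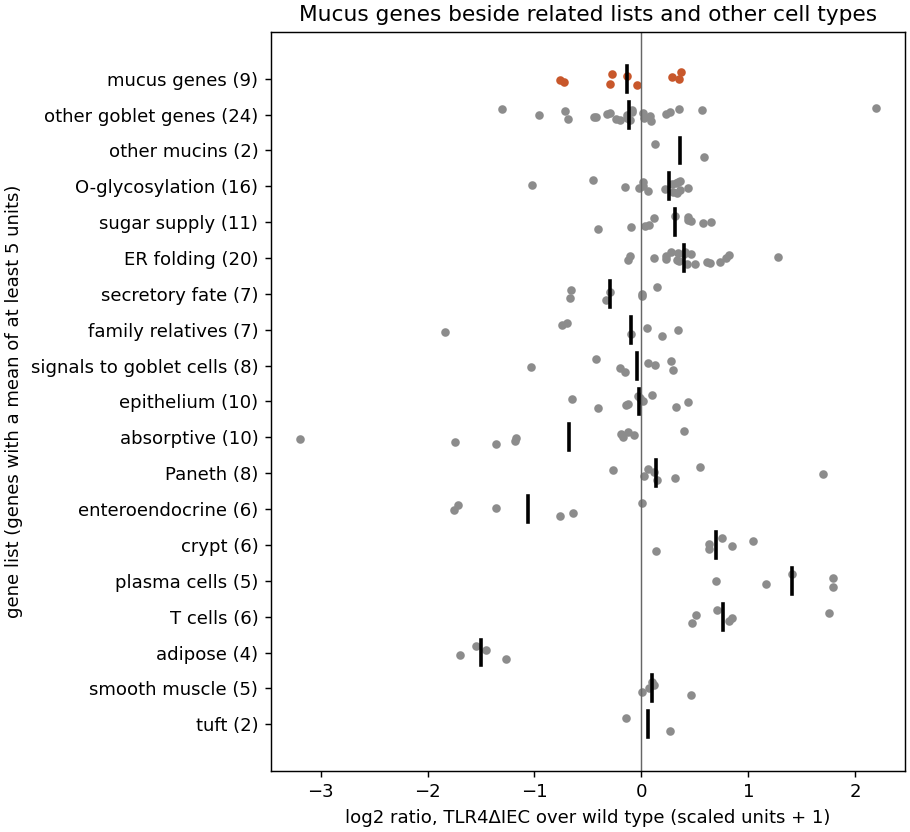
Log2 ratio between the TLR4ΔIEC and wild type pooled columns for each gene that passed the filter of 5 units (points) by list, with the list's median (bar) and the number of genes in brackets. The mucus genes (orange, median -0.14) spread on both sides of 0, between the absorptive and enteroendocrine lists on the left and the plasma and T cell lists on the right.

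Markers of several other cell types in the ileum had medians farther from 0 than the mucus genes. Of 10 measured absorptive enterocyte genes, 9 lay below 0 and 5 were at least 2-fold lower (median -0.68), with Fabp1 at -3.20, Apoa1 at -1.74, Alpi at -1.36 and Apoa4 at -1.18. The list covered a wide range. Fabp2, at -1.17, was the other gene past 2-fold, while Slc5a1 was at -0.19, Fabp6 at -0.17, Anpep at -0.13, Sis at -0.07 and Mttp at 0.40 (these 6 named after their values were seen). With no filter, which adds Lct, the median was -0.19. Their summed level over all 11 was 32563 units in wild type and 20565 in TLR4ΔIEC. Of 6 measured enteroendocrine genes, 5 lay below 0 (median -1.06, but -0.70 with a filter at 1 unit and -0.64 with none), with Sct at -1.75, Nts at -1.72, Pyy at -1.36 and Chgb at -0.64. Paneth cell genes, the other secretory cell of the crypt, had 7 of 8 above 0 and a median of 0.13, or 0.24 when the 50 highest genes were left out of the totals. Mptx2, which has a near-identical relative, was at 1.70, Defa26 at 0.55, Mmp7 at 0.31 and Defa22 at -0.27, and defensin copies cannot be separated with certainty.

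The 5 plasma cell genes were above 0 (median 1.41), with Igj at 1.79 and Mzb1 at 1.16, and their summed level was 242 and 799 units. The 6 T cell genes were above 0 (median 0.77), with Gzma at 1.75 and Cd3g at 0.85, summing to 101 and 271 units. Their median was 1.30 with a filter at 20 units, which only Gzma and Cd3g passed. The least covered of the 6, with 4.48 units in wild type and 6.59 in TLR4ΔIEC, passed the main filter only through TLR4ΔIEC. All 6 measured crypt genes were above 0 (median 0.69), with Mcm6 at 1.05, Ccna2 at 0.85, Olfm4 at 0.75 and Ccnb2 at 0.63. The 5 adipose genes summed to 64.5 and 20.4 units, with Cfd at -1.70, Car3 at -1.55, Cidec at -1.45, Adipoq at -1.26 and Plin1 at -0.46, all named after their values were seen. Plin1 did not pass the filter, and Adipoq and Cfd passed it only through wild type. Smooth muscle genes had a median of 0.10 (up to 0.22 under other scalings) with 5 of 5 above 0, and tuft cell genes had 1 above and 1 below 0 (median 0.06, -0.10 with no filter). The part of these other cell types in the values of the mucus genes was not tested.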

How the data were processed

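Total RNA of ileum from 6 mice was depleted of ribosomal RNA and made into libraries with an Ion Total RNA-Seq kit for sequencing on Ion Sphere particles, per the labels' protocols, which also state strand-specific reverse transcription, with libraries barcoded by mouse. Per the submitters' processing notes, the build was mm10, and the tools listed are TopHat2 2.0.10 and Bowtie2 2.1.0, without their roles. Per the file headers, the deposited signal is an average coverage, listed by RefSeq transcript. Each genotype's 3 mice share 1 column, per the design text of the series. How the authors averaged it, and whether strand was used, is not given in the sources used here. Pooled columns allow no test across mice, so none was made.

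The 22001 entries in both columns were scaled by the median of ratios (factor 1.05) to a mean total of 1000000 units. Of repeated symbols the entry with the highest mean was kept. Log2 ratios used a pseudocount of 1, which understates weakly covered genes, and 8888 genes had a mean of at least 5 units (coverage 3.41 in wild type, 3.58 in TLR4ΔIEC). Kilobases of reads are coverage times the length, nearest the annotated one, that makes both columns whole numbers of bases (within a relative tolerance of 1e-11). It differed from the annotated length by up to 12.8%, for Creb3l1, and is approximate. The read length is not given, so no counting interval is given. Of 214 list entries, 209 were matched, 205 by RefSeq accession and the rest by symbol. The members and the 18 other lists were chosen with earlier results of these data known. Named were all 9 genes and, of each other list, up to 4 genes with the largest absolute ratio and a mean of at least 20 units. Genes named outside this rule are marked, except the tissue marker Fabp6 and the weakly covered Muc5ac, Muc5b, Muc6, Tff1 and Tff2, also chosen after their values were seen, and 1 gene that the rule takes is not reported here. Coordinates are from GENCODE vM21. Python 3.11.15 with numpy 2.4.6, pandas 2.3.3 and matplotlib 3.10.9 was used, and the scaling was tested on simulated data. Alternatives were 4 other scalings, pseudocounts of 0.5 and 5, 3 other filters, the mean over entries, 1 scaling to the epithelial genes added after seeing the data, and, for the median, leaving out each gene or using the 3 genes with the same recovered length in both columns.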

Additional observations from a re-analysis of the deposited data

How the results depend on the processing

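Of 98 ratios of single mucus genes under 11 alternative settings, 13 moved by 0.1 or more on the log2 scale. The 2 genes past 1.5-fold, Zg16 and Tff3, kept their sign, which says little because their ratios lay far from 0. Muc2 alone changed sign, under 3 scalings. Zg16 ran from -0.80 to -0.62, Tff3 from -0.76 to -0.59, Spink4 from 0.35 to 0.47, Agr2 from 0.29 to 0.44, Creb3l1 from 0.25 to 0.47, Fcgbp from -0.29 to -0.19, Spdef from -0.28 to -0.18 and Galnt12 from -0.14 to -0.03. Under every setting run, 2 of the 9 were at least 1.5-fold lower and 0 past 2-fold. Their median of -0.14 was -0.0348 when the 50 highest genes were left out of the totals, which adds nearly the same amount to every well covered gene. It was -0.04 for the 3 genes with 1 recovered length and lay between -0.21 and -0.09 when each gene was left out in turn. The numbers of all genes at least 2-fold higher and lower, 115 and 248, became 65 and 146 when 5 units were added to each value. Filtering at 1 unit gave 206 and 380, filtering at 20 units 58 and 130, and no filter 222 and 395. These settings count other genes or shrink low values. Leaving the 50 highest genes out of the totals gave 155 and 188, and scaling to whole totals 145 and 205. Weakly covered genes, Creb3l1 among the 9, are the least certain, and no spread between mice is known. No paired analysis was possible because each genotype has 1 pooled column.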
